A study of Homo sapiens with 6 samples.

Results

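The genes described here are 10 that encode abundant carrier proteins of blood plasma. They comprise the albumin family (ALB, AFP, AFM and GC), the fetuins (AHSG and FETUB), transferrin (TF), the transthyretin and retinol-binding protein pair (TTR and RBP4) and alpha-2-macroglobulin (A2M). They were taken as the rows whose Ensembl identifier maps to these symbols, and all 10 were found among 60564 rows with such an identifier. RNA was sequenced from 6 libraries of HepG2, an established human hepatoma line that keeps many functions of hepatocytes and carries no engineered change (genotype WT). Formononetin is a methoxylated plant isoflavone. The 3 formononetin libraries came from cells given it for 72 h at a labelled dose of 625, with the unit written as μm. The 3 control libraries are labelled with the culture medium DMEM as their treatment. No solvent control is named, and the treatment text, which gives the formononetin dose and time, is the same for all 6 samples. All cells were grown in DMEM with fetal calf serum. The line stands for 1 tumour, and the labels do not say that replicates were separate cultures, so a p-value here reflects nothing but how far these libraries differ among themselves, possibly for technical reasons. No treatment time is given for the controls.

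Plasma carriers are made mostly by hepatocytes, enter the secretory route through a signal peptide and circulate with their cargo. Albumin binds fatty acids, bilirubin, hormones and drugs. Alpha-fetoprotein, encoded beside it, is its fetal counterpart, is silenced after birth and returns in many liver tumours. Transcription of these genes in liver depends on factors such as HNF4A, CEBPA and the FOXA proteins. In RNA from whole cultures, fewer cells of a kind and less RNA per cell cannot be told apart.

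The albumin family genes ALB, AFP and AFM lie in 1 cluster on chromosome 4, and the bases before their starts are shown because ALB and AFP both fell while AFM was almost without counts. Of the RBP4 starts, 1 is shown because RBP4 was not lowered. Each sequence is the 250 bases before a RefSeq start (build GRCh38.p14), read 5′ to 3′ on the gene's strand. Capitals mark GTTAAT, a short element of liver gene promoters, and TATAAA, the TATA box. The windows are chr4:73404037-73404286 (+) for ALB, chr4:73435971-73436220 (+) for AFP, chr4:73481495-73481744 (+) for AFM and chr10:93601236-93601485 (-) for RBP4.

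ALB: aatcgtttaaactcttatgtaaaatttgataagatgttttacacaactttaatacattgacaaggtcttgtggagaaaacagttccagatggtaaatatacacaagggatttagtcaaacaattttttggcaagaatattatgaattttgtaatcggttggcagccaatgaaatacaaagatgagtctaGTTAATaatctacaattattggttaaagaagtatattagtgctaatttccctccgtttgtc

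AFP: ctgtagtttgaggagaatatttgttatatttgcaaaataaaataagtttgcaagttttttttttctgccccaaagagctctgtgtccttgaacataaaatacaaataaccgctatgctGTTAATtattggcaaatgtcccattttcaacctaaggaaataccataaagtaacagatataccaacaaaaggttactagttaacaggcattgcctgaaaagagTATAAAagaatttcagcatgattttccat

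AFM: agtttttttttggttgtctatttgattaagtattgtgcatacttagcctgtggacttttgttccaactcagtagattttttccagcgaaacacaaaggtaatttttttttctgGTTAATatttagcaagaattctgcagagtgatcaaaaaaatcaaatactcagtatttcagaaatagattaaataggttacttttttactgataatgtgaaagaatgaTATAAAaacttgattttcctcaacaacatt

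RBP4: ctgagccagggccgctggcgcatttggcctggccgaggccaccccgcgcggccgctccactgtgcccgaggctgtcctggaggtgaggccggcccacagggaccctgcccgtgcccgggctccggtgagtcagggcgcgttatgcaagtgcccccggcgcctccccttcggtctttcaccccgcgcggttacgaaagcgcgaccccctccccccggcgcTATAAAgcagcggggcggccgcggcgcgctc

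The RefSeq table held 11 starts for 7 of the 10 genes. GTTAAT, searched on both strands, was present before the starts of ALB, AFP and AFM, beginning at -61, -132 and -137, and before none of the other 8 starts (of TF, AHSG, FETUB and RBP4). Of the genes without it, TF and AHSG were lowered by formononetin, and FETUB and RBP4 were not called. Of 35116 promoter windows of the same length, 6.23% held it. The 8 starts without it are not all separate promoters. A TF start and a FETUB start lay at -83958 and -4391 bases from the start of the gene's principal transcript, and windows of RBP4 starts partly overlapped. TATAAA began at -29 in AFP, -30 in AFM and -31 at the RBP4 start shown, and 10.7% of all windows held it. It was also found before 1 of 2 FETUB starts and 1 other RBP4 start. CCAAT was found before the starts of ALB and AFP and before 1 start each of TF, FETUB and RBP4, against 32% of all windows, without overlap with the other motifs. GCGTG, the core of the xenobiotic response element, occurred before 1 RBP4 start that is not shown, against 32.2% of all windows. TGACNNNGC, the core of the NRF2 element, was found before 1 FETUB start, against 10.9% of all windows. A match is a match of letters and not a bound site.

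Each library held 30848848 to 45682722 counts on named genes. Control replicate 1 stood apart on the second principal component (16.5% of the variance), and without it the same number of carrier genes, 7, was lowered. Of 22230 genes that passed the filter on low counts, 8.71% were lowered and 12.0% raised by formononetin at an adjusted p under 0.05 (edgeR quasi-likelihood test with Benjamini-Hochberg adjustment, termed called below). In counts of genes, 1937 were lowered and 2659 raised, and under upper quartile scaling 2737 and 1813. All 12 hepatocyte markers listed passed the filter, 7 were lowered and 2 (APOA2 and HNF4A) raised, with a median log2 fold change of -0.17. Among those lowered, FGB changed by -0.81, FGA by -0.64, SERPINA1 by -0.57 and APOB by -0.13. The summed level of the 12 hepatocyte markers was 34698 to 36043 CPM in control and 31054 to 32154 CPM in formononetin libraries. CPM are counts per 1000000 of the library size after scaling by TMM. Most of the sum was APOB, at a mean of 25683 CPM in control. Among 12 markers of stromal, endothelial, immune and red cells, 5 had no counts in any library (COL3A1, DCN, PTPRC, CD3E and HBB). The 12 summed to 1226 to 1318 CPM in control libraries and 1003 to 1042 CPM with formononetin, of which LYZ alone had means of 1234 and 982 CPM. LYZ was lowered, while CD68 rose from 3.35 ± 0.832 to 6.73 ± 1.31 CPM (log2 fold change 1.01, adjusted p = 0.0204, edgeR). The markers singled out here were chosen after their values were seen. The labels name no cells other than HepG2, and the source of the counts on these markers was not tested. Small structural RNA genes took 4.85 to 6.77% of counts in control and 3.77 to 6.03% in formononetin libraries.

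The carrier genes took a smaller share of the RNA with formononetin. Together they held 2.99, 3.17 and 3.05% of counts on named genes in the control libraries, and 2.13, 2.13 and 2% in the formononetin libraries, in order of replicate number. The groups did not overlap, with means of 3.07 ± 0.0875% and 2.09 ± 0.0779% (SD, n = 3 each, p = 0.1 by a two-sided exact permutation test, which cannot go lower with 3 libraries a group). The difference of -0.98 percentage points was -1.08 when small structural RNA genes were left out of the total. In CPM scaled by TMM, the 10 genes summed to 31195 ± 834 in control and 20568 ± 412 in formononetin libraries, so their sum fell by 34.1%. A2M, TF, ALB and AHSG made up 95.4% of this fall.

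**Figure D1:**
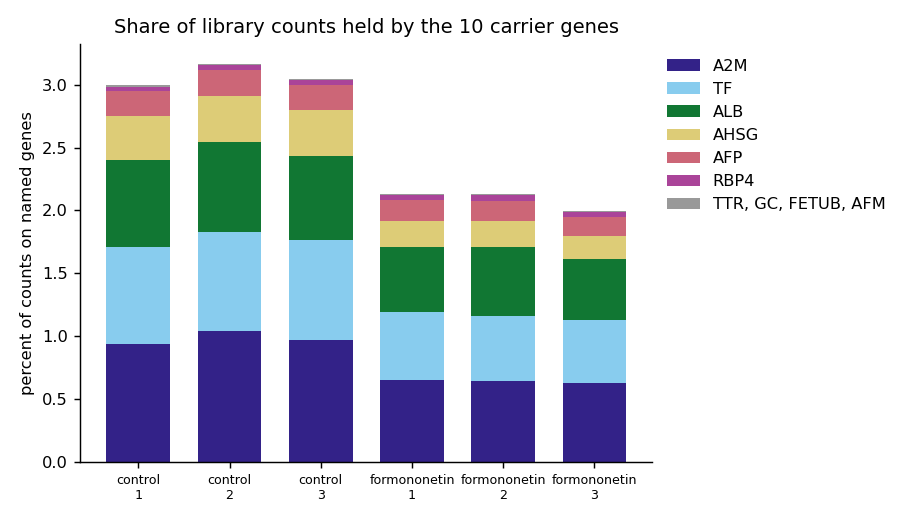
Stacked bars give the percent of counts on named genes that each carrier gene took in each of the 6 libraries, from 0. The 3 control bars reach 2.99 to 3.17% and the 3 formononetin bars 2 to 2.13%, with A2M, TF and ALB as the thickest layers in every library.

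Of the 10 genes, 9 passed the filter on low counts, and AFM did not. Formononetin lowered 7 of the 9 and raised none at an adjusted p under 0.05. RBP4 and FETUB were not called. The median log2 fold change of the 9 was -0.55, against -0.01 over all genes tested. Among the 1934 genes with a mean of 100 CPM or more, where small changes are easier to detect, 22.8% were lowered and the median was 0.01. Of the 6 carrier genes at that level (A2M, TF, ALB, AHSG, AFP and RBP4), 5 were lowered. For 7 of the 9 genes, every formononetin library lay below every control library, a pattern that 18.7% of all tested genes showed.

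**Figure D2:**
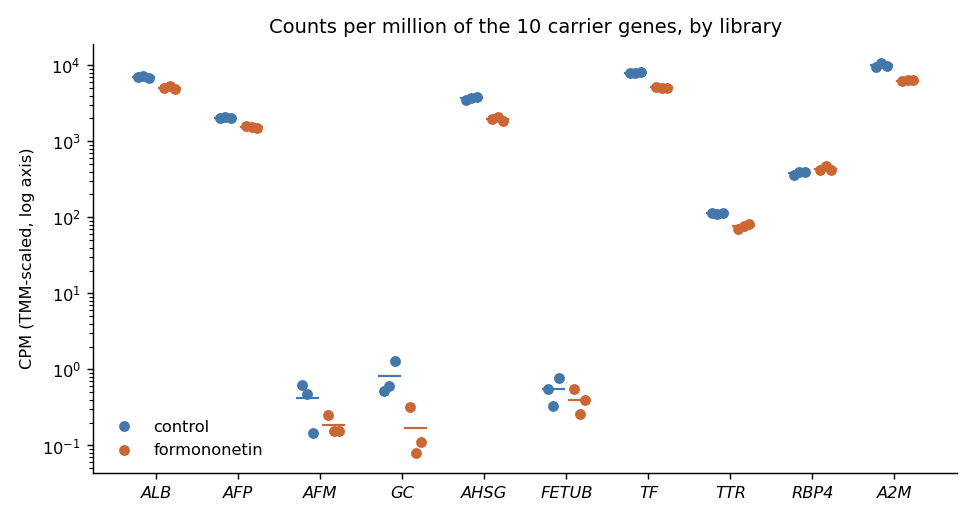
Points give the CPM of each carrier gene in each library on a log axis, and lines give the group means of 3 libraries. A2M, TF, ALB, AHSG, AFP and TTR lie lower in all formononetin libraries than in any control library, RBP4 lies higher, and AFM, GC and FETUB stay near or under 1 CPM.

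ALB (ENSG00000163631, chromosome 4, 73397114 to 73421412, GRCh38), the gene of the main carrier of plasma, was at 6998, 7242 and 6769 CPM in control replicates and 5060.2, 5386 and 4860.1 CPM in formononetin replicates. All formononetin values lay below the lowest control value. The log2 fold change was -0.46 ± 0.05 (SE) with adjusted p = 0.00104 (edgeR), so ALB transcript fell by 27.1%. AFP (ENSG00000081051, chromosome 4, 73431138 to 73456174), the fetal albumin-like carrier and a serum marker of liver cancer, was at 2020.3, 2110.4 and 2020.2 CPM in control replicates and at 1595, 1556 and 1497 CPM after formononetin. These groups did not overlap either, and AFP fell by 24.4% (log2 fold change -0.40 ± 0.04, adjusted p = 0.000824, edgeR). The ratio of AFP to ALB counts within a library was 0.293 ± 0.00503 in control and 0.304 ± 0.0135 in formononetin libraries, with overlapping values (exact permutation p = 0.3, two-sided, 0.42 after adjustment over the 7 ratios compared). The difference of log2 ratios was 0.05. The exact permutation test cannot go below p = 0.1 with 3 libraries a group. It therefore cannot decide whether the fetal and the adult gene changed relative to each other.

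The other albumin family genes had few counts in this line. AFM (ENSG00000079557, chromosome 4, 73481683 to 73504001) encodes afamin, a carrier of vitamin E, and had 19, 17 and 5 counts in control and 10, 6 and 7 counts in formononetin replicates. The groups overlapped, and its mean level was 0.416 ± 0.244 CPM in control libraries and 0.187 ± 0.0532 CPM with formononetin. GC (ENSG00000145321, chromosome 4, 71741693 to 71804041), the vitamin D-binding protein gene, had 16, 22 and 44 counts in control and 13, 3 and 5 in formononetin replicates. Its groups did not overlap, the log2 fold change was -2.24 ± 0.58, and it was called at adjusted p = 0.0341 (edgeR). The call depended on single libraries: GC did not pass once control 2 (adjusted p = 0.0613), control 3 (0.114), formononetin 2 (0.0978) or formononetin 3 (0.11) was dropped, nor with no low-count filter (0.057), and its log2 fold change ran from -3.05 to -1.73. In every library more rows held a count of 3 (1701 to 1852) than of 2 (1586 to 1683), so the worth of 1 count is uncertain at this level.

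AHSG had the largest fold change among the 6 of the 10 genes with a mean of 100 CPM or more, while the neighbouring fetuin gene was barely detected. AHSG (ENSG00000145192, chromosome 3, 186612923 to 186621318) encodes fetuin-A, which keeps calcium phosphate in solution in plasma. It was at 3530.03, 3696 and 3797 CPM in control replicates and at 1968, 2065 and 1855 CPM after formononetin, with no overlap. It fell by 46.6% (log2 fold change -0.91 ± 0.05, adjusted p = 0.000125, edgeR). FETUB (ENSG00000090512, chromosome 3, 186635969 to 186653141), which encodes fetuin-B, an inhibitor of the protease that hardens the egg coat, had 17, 12 and 26 counts in control and 22, 10 and 18 in formononetin replicates. These groups overlapped, and FETUB was not called (-0.45 ± 0.41, adjusted p = 0.497, edgeR), with values from -0.73 to -0.14 when 1 library was left out. HRG-AS1 overlaps FETUB exons by 84 bases on the opposite strand and had 209 counts over the 6 libraries, more than FETUB itself. The split of reads between them is uncertain, since the strand setting of the counting is not given in the sources used here.

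TF (ENSG00000091513, chromosome 3, 133745956 to 133796640) encodes transferrin, which carries iron to cells. It was at 7875, 7941 and 8134 CPM in control replicates and at 5256, 5081 and 5069 CPM after formononetin. The values were tight within each group and did not overlap, and TF fell by 35.7% (-0.64 ± 0.03, adjusted p = 0.000101, edgeR). The ratio of TF to ALB was 1.14 ± 0.0544 in control and 1.01 ± 0.0563 in formononetin libraries, with no overlap (p = 0.1 by the two-sided exact permutation test, 0.233 after adjustment). SRPRB shares 112 exon bases with TF on the same strand, and the sum of TF with its overlapping genes changed by -0.63. A2M (ENSG00000175899, chromosome 12, 9067664 to 9116229), a broad protease inhibitor that also carries growth factors and cytokines, had the most counts of the 10 genes. It was at 9498, 10561 and 9903 CPM in control replicates and at 6264, 6308 and 6346 CPM after formononetin, again with no overlap. A2M fell by 36.9% (-0.66 ± 0.05, adjusted p = 0.000229, edgeR). A2M-AS1 overlaps its exons by 561 bases on the opposite strand but had 1016 counts in all 6 libraries together, against 240607 or more counts of A2M in each.

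TTR and RBP4 encode proteins that travel as a complex and deliver retinol, and of this pair only TTR was called. TTR (ENSG00000118271, chromosome 18, 31557010 to 31599021), which also carries thyroxine, was at 113, 111 and 116 CPM in control replicates and at 70.8, 78.1 and 82.6 CPM after formononetin. With no overlap between groups, TTR fell by 31.8% (-0.55 ± 0.06, adjusted p = 0.00133, edgeR). RBP4 (ENSG00000138207, chromosome 10, 93591687 to 93601744), the retinol carrier, was at 358, 396 and 389.9 CPM in control replicates and at 414, 470.3 and 419 CPM after formononetin. RBP4 was alone among the 10 genes in having all formononetin libraries above all control libraries. The share of all tested genes with this upward pattern was not counted, while 12.0% were called as raised. RBP4 was not called (0.19 ± 0.06, adjusted p = 0.0779, edgeR), but it was under DESeq2 (0.20, adjusted p = 0.0426) and when scaled by the library total (0.23, adjusted p = 0.0446), and its change was 0.11 under upper quartile scaling (adjusted p = 0.276). A ratio of counts within a library does not depend on the scaling, and RBP4 to TTR was 3.17, 3.56 and 3.37 in control against 5.85, 6.02 and 5.08 in formononetin replicates. The ratio was 1.67-fold higher with formononetin, with no overlap (difference of log2 ratios 0.74, exact permutation p = 0.1, two-sided, 0.233 after adjustment over 7 ratios). Among the 4 ratios that leave out AFM, GC and FETUB it was the largest difference.

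**Figure D3:**
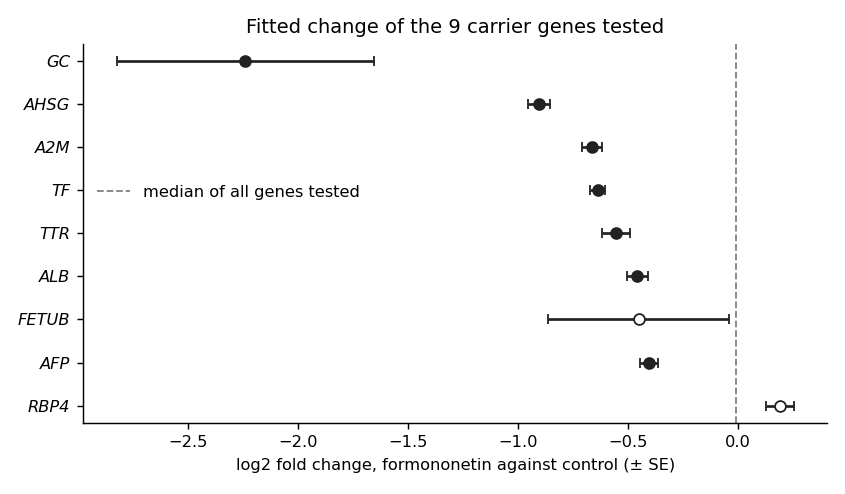
Points give the fitted log2 fold change of formononetin against control for the 9 carrier genes tested, with bars of 1 SE. Filled points passed an adjusted p of 0.05, and the dashed line is the median of all genes tested at -0.01. GC and FETUB have the widest bars, and RBP4 alone lies to the right of the line.

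**Figure D4:**
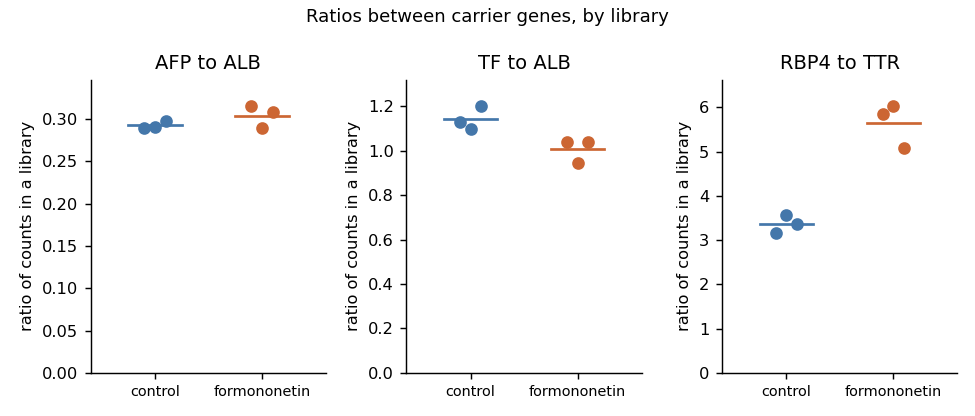
Points give the ratio of counts of 2 carrier genes within each library, lines the mean of 3 libraries, and axes start at 0. AFP to ALB overlaps between groups, TF to ALB is slightly lower in formononetin libraries, and RBP4 to TTR has means of 3.37 in control and 5.65 in formononetin libraries.

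The makeup of the carrier counts was also compared between groups. These are parts of 1 sum, so a smaller part of 1 gene makes the parts of others larger. Of all counts on the 10 genes, AHSG took 11.8 ± 0.363% in control and 9.54 ± 0.322% in formononetin libraries. The part of ALB was 22.5 ± 0.652% in control and 24.8 ± 0.818% with formononetin, that of AFP 6.57 ± 0.0795% and 7.53 ± 0.171%, and that of RBP4 1.22 ± 0.0388% and 2.11 ± 0.122%. For these 4 genes the groups did not overlap (exact permutation p = 0.1 each, two-sided, unadjusted and the lowest value possible). GC, with few counts, did not overlap either (0.00261 ± 0.00136% and 0.000829 ± 0.000642%). The parts of TF (25.6 ± 0.73% and 25 ± 0.636%) and A2M (32 ± 0.862% and 30.7 ± 0.752%) overlapped between groups. ALB and AFP thus held a larger part of a smaller sum.

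Levels of different genes were compared per kilobase of coding length, which leaves UTRs out and is therefore rough. On that scale ALB (3833 ± 130 CPM per kilobase) and TF (3812 ± 64.4) came first in control libraries and did not differ beyond their spread. AHSG followed at 3337 ± 123, A2M at 2259 ± 121, AFP at 1122 ± 28.5, RBP4 at 632 ± 33.6 and TTR at 257 ± 5.45. GC, FETUB and AFM stood under 1 with overlapping spreads. In formononetin libraries the order of the first 7 was the same, from ALB at 2793 ± 145 and TF at 2452 ± 49.9 to RBP4 at 721 ± 51.6 and TTR at 175 ± 13.5. ALB and TF were there separated by more than their SDs. By counts alone, A2M ranked 6 to 7 among all named genes in control libraries and 8 in formononetin libraries, and AHSG 18 to 19 and 31 to 36.

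The genes whose log2 CPM followed ALB most closely over the 6 libraries, among the 5577 genes whose log2 CPM averaged at least 5, were GSAP, ENSG00000287299 (without a symbol) and FMNL2. Their root mean square distances from ALB, after centring each gene, were 0.0317, 0.033 and 0.0337. AFP was at 0.048 from ALB, TF and TTR at 0.109, AHSG at 0.229 and RBP4 at 0.328. Those nearest to AFP were SLTM, XPC and TOMM20, at 0.0151, 0.0168 and 0.0246. These are descriptions over 6 libraries that share the treatment contrast.

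Other binding proteins of plasma went both ways. Of 22 listed, 20 were tested, 8 were lowered and 4 raised, with a median log2 fold change of -0.06, against -0.01 for all genes. Among all genes tested, 8.71% were lowered and 12.0% raised. CP, the copper carrier ceruloplasmin, fell from 465 ± 40.8 to 238 ± 20.1 CPM (-0.97 ± 0.08, adjusted p = 0.000486, edgeR). SERPINA7, the thyroxine-binding globulin gene, fell from 138 ± 6.3 to 80.4 ± 3.46 CPM (-0.78 ± 0.05). HPX, which binds heme, changed by -0.77 ± 0.14 at 10.1 ± 1.43 CPM in control, and HP, which binds haemoglobin, by -0.29 ± 0.06. The acute phase carrier ORM1 was not called (-0.08 ± 0.08, adjusted p = 0.537), nor was the vitamin B12 carrier TCN2, at 0.276 ± 0.167 CPM in control. IGFBP1 and IGFBP4, carriers of insulin-like growth factors, rose by 0.67 ± 0.10 and 0.37 ± 0.05. HP did not pass once control 3, formononetin 1 or formononetin 2 was dropped (adjusted p up to 0.0575). Lowered members numbered 4 with formononetin 1 dropped, and 5 with either control 3 or formononetin 2 dropped.

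Of 18 listed relatives of the carriers by sequence family, 12 were tested, 1 rose, 1 fell and 10 did neither (median -0.02). These counts are close to the 12.0 and 8.71% of all genes tested. CD109, a membrane-bound relative of A2M, rose from 20.4 ± 1.62 to 44 ± 2.6 CPM (1.11 ± 0.08, adjusted p = 0.000295, edgeR), opposite to A2M. CST3, the cystatin C gene of the superfamily that includes the fetuins, fell from 398 ± 18.8 to 336 ± 12.2 CPM (-0.24 ± 0.05), a call that did not hold with formononetin 2 dropped (adjusted p = 0.0555).

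Among 29 transcription factors known to act on liver secretory genes, all were tested, 10 were lowered and 4 raised (median -0.26). The shares over all genes tested were 8.71% lowered and 12.0% raised. The factors moved in both directions. HNF4A, a central hepatocyte regulator, rose from 185 ± 6.41 to 251 ± 31.3 CPM (0.44 ± 0.09, adjusted p = 0.012, edgeR) and CEBPA, which activates ALB, from 60.4 ± 1.83 to 81.3 ± 5.24 CPM (0.43 ± 0.06). FOXA2, a pioneer factor of liver genes, fell from 54.2 ± 2.59 to 38.3 ± 1.48 CPM (-0.50 ± 0.06). FOXA1 (-0.24 ± 0.04, adjusted p = 0.009, edgeR) and FOXA3 (-0.45 ± 0.09, adjusted p = 0.0154, edgeR), named after their values were seen, were also lowered. The largest falls among those called at a mean log2 CPM of 3 or more were ONECUT1 (-0.82 ± 0.06) and GATA6 (-0.76 ± 0.12), and the largest rises CREB3L3 (1.55 ± 0.16), a membrane-bound factor of the fasting response, and ONECUT2 (0.65 ± 0.05).

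Of the known repressors of AFP named here, 1 of 3 was called. ZHX2, which silences AFP after birth, went from 126 ± 4.26 to 111 ± 4.5 CPM (-0.18 ± 0.05, adjusted p = 0.0456, edgeR). ZHX2 did not pass in 11 of 18 alternatives, among them dropping any 1 library (adjusted p up to 0.124). ZBTB20 varied widely (27.4 ± 11.8 and 20.2 ± 4.88 CPM) and was not called (-0.44 ± 0.32), with log2 fold changes from -0.71 to -0.08 over the alternatives. ZFHX3 was not called either (-0.26 ± 0.10, adjusted p = 0.103), but was with control 1 dropped (adjusted p = 0.0102) and under upper quartile scaling (0.0483). NR5A2, an activator of AFP, changed by 0.10 ± 0.07 (adjusted p = 0.389).

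**Figure D5:**
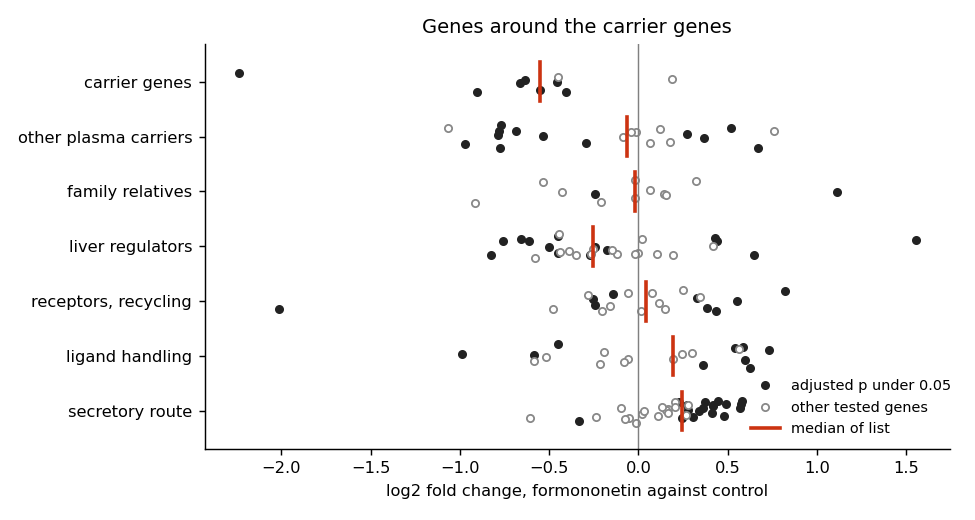
Each point is the log2 fold change of 1 tested gene, grouped by list, with filled points for an adjusted p under 0.05 and a red bar at the median of each list. The carrier genes have a median of -0.55, liver regulators one of -0.26 and secretory route genes one of 0.24, while other plasma carriers spread to both sides of 0.

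Of 22 genes listed for receptors and recycling of these carriers, 20 were tested, 5 rose and 4 fell (median 0.04). Over all genes tested, 12.0% were raised and 8.71% lowered. The list, termed receptors below, also holds genes of other kinds, such as DIO1 and SLC40A1, which were both called as raised. FCGRT, the receptor that rescues albumin from breakdown, was at 69.2 ± 1.53 and 66.4 ± 5.37 CPM and not called (-0.06 ± 0.07, adjusted p = 0.594, edgeR). Its light chain B2M rose from 143 ± 16.4 to 211 ± 14.0 CPM (0.55 ± 0.09). TFRC, the receptor that takes up iron-loaded transferrin, rose from 160.4 ± 25.3 to 217 ± 1.05 CPM (0.44 ± 0.11), opposite to TF. The related TFR2 was lower (-0.26 ± 0.07, adjusted p = 0.0437). LRP1, which clears complexes of A2M, was not called (0.12 ± 0.04, adjusted p = 0.0815), but was in 3 of 18 alternatives. STRA6, the membrane receptor for RBP4, was low at 1.13 ± 0.311 CPM in control and 0.28 ± 0.174 CPM with formononetin (-2.01 ± 0.45, adjusted p = 0.0196), and ASGR2, of the receptor that removes desialylated plasma proteins, changed by -0.24 ± 0.05. TFRC did not pass once control 1 or any formononetin library was dropped, or under upper quartile scaling (adjusted p up to 0.0795). STRA6 did not pass once control 1, control 2 or formononetin 2 was dropped (up to 0.0676), ASGR2 once formononetin 2 was (0.0529) and TFR2 once any 1 library was (up to 0.12). Of this list, 0 to 2 genes were lowered and 2 to 4 raised when 1 library was left out, with 0 lowered and 2 raised when it was formononetin 2.

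A list of enzymes that handle the retinoids and vitamin D carried by RBP4 and GC, together with the nuclear receptors for these ligands, had 6 of 19 tested members raised and 3 lowered (26 listed, median 0.19). None of the 5 nuclear receptors tested (RXRA, RXRB, RARA, RARB and RARG) was called, and VDR was not tested. RETSAT, a retinol saturase, rose from 93.4 ± 5.81 to 155 ± 4.01 CPM (0.73 ± 0.06, adjusted p = 0.000349, edgeR). DHCR7, which consumes the precursor of vitamin D in making cholesterol, rose by 0.63 ± 0.11, and DHRS3, which reduces retinal, fell by 0.45 ± 0.05 on the log2 scale. Lowered members of that list numbered 1 with either control 2 or formononetin 3 dropped. The secretory route itself was covered by genes of the signal recognition particle and its receptor, the translocon, signal peptidase, disulfide formation and COPII vesicles. Of these, 17 of 35 were raised and 1 lowered, with a median of 0.24. For comparison with both lists, 12.0% of all genes tested were raised and 8.71% lowered. SEC61G, of the translocon, rose from 25.9 ± 3.06 to 38.7 ± 1.33 CPM (0.58 ± 0.09) and the COPII GTPase gene SAR1A from 62.5 ± 12.1 to 93.2 ± 3.41 CPM (0.58 ± 0.12), while the cargo adaptor gene SEC24B fell (-0.33 ± 0.06). Raised members numbered 11 with formononetin 2 dropped and 10 with formononetin 3 dropped. SAR1A did not pass once control 2, formononetin 2 or formononetin 3 was dropped (adjusted p up to 0.0638).

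Genes beside the carriers on the chromosome were called about as often as genes in general. Of 99 annotated genes starting within 250 kb of a carrier gene, 35 were tested, 5 were raised and 4 lowered (median -0.05), against 12.0 and 8.71% of all genes tested. These 9 are named here after their values were seen. ANKRD17, the gene beside ALB that was best expressed, stood at 391 CPM in control libraries and 399 CPM with formononetin (0.03 ± 0.04, adjusted p = 0.674, edgeR). Near the fetuins, DNAJB11, EIF4A2 and KNG1 fell (-0.48, -0.29 and -0.68) and RFC4 rose by 0.87. Near TF, the pseudogene ACSL3P1, which lies within its bounds on the same strand, changed by -1.03, while SRPRB rose by 0.49 and TOPBP1 by 0.52. Near RBP4, CEP55 rose by 0.60 and MYOF by 1.45.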

How the data were processed

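The values are raw counts, whole numbers that the authors deposited for each gene in 6 libraries. The submitters' processing notes name GRCh38, STAR 2.5.3a and StringTie 1.3.1c without their roles. Neither the counter nor its strand setting and annotation is named in the labels. Of 62729 rows, 60564 carry an Ensembl identifier. The other 2165 are assembled loci with no gene name, held 3.82 to 5.62% of counts and were left out.

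Symbols came from a gene name table (60295 identifiers matched) and coordinates from GENCODE 29. Genes were filtered with filterByExpr, scaled by TMM and compared with edgeR 4.0.16 in R 4.3.3 (glmQLFit, glmQLFTest, 3 against 3, group as the only term, two-sided, Benjamini-Hochberg over 22230 genes). The fit was tested on simulated data. CPM use TMM-scaled library sizes, and SE is the log2 fold change over the square root of F. Values after ± are SDs over 3 libraries for levels and shares, and SEs for log2 fold changes. Shares and ratios were compared by exact permutation tests. Alternatives were DESeq2 1.42.0, limma 3.58.1 (voom), other scalings and filters, summed overlapping genes, a replicate block and leaving out each library. Leaving out structural RNA genes and keeping assembled loci were added after seeing the data.

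The members and lists were chosen with earlier results of these data known. All members are described. From other lists, genes set in advance are named, with up to 2 called genes per direction at a mean log2 CPM of 3 or more that changed most. RBP4R was not matched, and some genes of the rule are not reported here. Figures were drawn with matplotlib 3.10.9.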

Additional observations from a re-analysis of the deposited data

How the results depend on the processing

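Under 18 alternatives, ALB, AFP, AHSG, TF, TTR and A2M were lowered every time, with log2 fold changes from -0.54 to -0.41 for ALB, -0.48 to -0.36 for AFP, -0.98 to -0.86 for AHSG, -0.72 to -0.59 for TF, -0.63 to -0.50 for TTR and -0.74 to -0.62 for A2M. The number of lowered carrier genes was 6 to 7 when 1 library was left out, and that of raised ones was 1 under DESeq2 and under library total scaling, in each case RBP4. FETUB was called in none of 17 alternatives (adjusted p 0.289 to 0.876). AFM was fitted with no low-count filter (-1.11, adjusted p = 0.31), under DESeq2 (-1.14, unadjusted p = 0.14, no adjusted value) and in 4 of the fits without 1 library (-1.54 to -1.02, adjusted p 0.0593 to 0.373). The difference in summed share was -1.02 to -0.94 percentage points when 1 library was left out and -1.08 without structural RNA genes. Receptors raised numbered 2 under upper quartile scaling, and receptors lowered 2 under library total scaling or with no low-count filter. Lowered secretory route genes numbered 2 under DESeq2 or with the 1 CPM filter and 3 under upper quartile scaling. When 1 library was left out, counts ran from 4 to 6 for other carriers lowered, 0 to 1 for relatives lowered, 2 to 4 for receptors raised, 0 to 2 for receptors lowered, 1 to 4 for ligand handling genes lowered, 10 to 15 for secretory route genes raised and 1 to 2 for those lowered. The cause of these shifts was not tested.

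No pairing of libraries by replicate number was seen. Deviations of same-numbered libraries correlated at -0.0021, 0.0092 and -0.022, and not every library correlated best with its own number. The labels do not say whether libraries were paired, and 3 libraries a group cannot settle it. With a replicate block, 1921 genes were raised and 1362 lowered, GC lost its call (adjusted p = 0.0737), and receptors numbered 3 raised and 2 lowered. Depth limits AFM, GC and FETUB, which had 3 to 44 counts per library.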
